A study of Gallus gallus with 6 samples.

Results

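The genes described here carry peptides to the cell surface for T cells to inspect. They are the class I genes B2M, BF1, BF2 and TAP1 and the class II genes BLB1, BLB2, CD74 and DMA. They were taken by gene name from 10 listed names, of which 8 were matched to 1 gene ID each, 8 of the 16963 genes in the deposited tables, with 12 transcripts. TAP2 and CIITA, also listed, were not analysed here.

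Bulk RNA-seq was done on chicken ovarian adenocarcinoma cells grown from ascites, as 3 primary lines named C27, C29 and C30. Each line was grown to confluence on gelatin, dissociated with trypsin and sorted by FACS into cells with aldehyde dehydrogenase activity (ALDH+) and cells without it (ALDH-). No drug, transgene or genetic change is given in the labels for either fraction, and the age of the birds is not given in the sources used here. Each line gave 1 library per fraction, so each group has 3 libraries (n = 3), and p-values between the fractions measure the spread between these 3 lines. ALDH activity is widely used to enrich stem-like tumour cells.

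Class I molecules are shown by nearly all nucleated cells. A polymorphic heavy chain pairs with beta-2 microglobulin, and peptides made by the proteasome reach it through the TAP transporter of the endoplasmic reticulum. Class II molecules are carried mainly by macrophages, dendritic cells and B cells. Their alpha and beta chains assemble on the invariant chain CD74, which lysosomal proteases cut away before the DM protein exchanges the remaining fragment for a peptide. The chicken MHC is compact, and in the RefSeq table of the GRCg7b assembly the order on chromosome 16 is BLB1, TAPBP, BLB2, BRD2, DMA, DMB1, DMB2, BF1, TAP1, TAP2 and BF2, while B2M and CD74 lie outside this run. The deposited tables use another build, so no positions are given.

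Libraries held 22170788 to 26747453 estimated counts. Values are given as CPM, counts scaled to a common library size with TMM factors, when libraries are compared, and as TPM, which also corrects for transcript length, when genes are compared. Of 12811 genes tested with edgeR, 786 passed an adjusted p of 0.05 (107 higher and 679 lower in ALDH+), and all 8 genes described here were tested. The fractions also differed in leukocyte markers. Of 23 macrophage and monocyte markers, 22 were tested and 21 were lower in ALDH+ (20 or 21 when any 1 library was left out), with a median log2 difference of -5.07. Their summed level was 3551 to 5348 TPM in ALDH- and 129.7 to 273.9 TPM in ALDH+ libraries, and none of the 23 was at 0 in any library. SPI1, the myeloid transcription factor, had 229.6, 193.7 and 375.5 CPM in ALDH- and 10.5, 7.95 and 6.58 CPM in ALDH+ of C27, C29 and C30. Epithelial markers were unevenly present under the label of adenocarcinoma cells. The keratin KRT7 had 629.1 to 2940 CPM over the 6 libraries, the keratin KRT18 36.3 to 157 CPM, CDH1 (E-cadherin) 0.738 to 49.5 CPM and the surface marker EPCAM 0.0379 to 1.82 CPM, and the fibroblast collagen COL1A1 8904 to 22045 CPM.

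Of the 4 class II genes, BLB2 was lower in ALDH+ cells in edgeR, both without and with the line as a block. BLB1 did not pass without the block but passed with it (edgeR adjusted p = 0.0212), and CD74 passed in neither fit. BLB1 and CD74 had ALDH+ values below all ALDH- values, and the DMA values of the fractions overlapped. Values are listed in the order C27, C29, C30. BLB2, a class II beta chain, had 37.7, 36.3 and 65.5 CPM in ALDH- and 5.44, 8.94 and 2.58 CPM in ALDH+ libraries. The groups did not overlap, and within the lines ALDH- was 6.94-fold, 4.07-fold and 25.3-fold higher. Group means were 46.5 ± 16.4 CPM in ALDH- and 5.65 ± 3.18 CPM in ALDH+ (SD, n = 3 each). The log2 difference was -3.04 (SE 0.49, 95% interval -4.17 to -1.91, edgeR adjusted p = 0.00929). BLB2 was below the threshold in all 19 alternative settings, with adjusted p from 5.96e-08 to 0.043.

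BLB1, the other class II beta chain, had 2.80, 2.98 and 19.0 CPM in ALDH- and 0.738, 0.994 and 1.41 CPM in ALDH+ libraries. All ALDH+ values lay below all ALDH- values, but the C30 ALDH- library stood well above the other two ALDH- libraries. The log2 difference was -2.97 (SE 0.82, 95% interval -4.87 to -1.07), and the edgeR adjusted p of 0.0845 missed the threshold. With the line as a block the difference was -2.46 and adjusted p = 0.0212. Without the ALDH- library of C30 it was -1.41 (edgeR adjusted p = 0.281), and without that of C27 the adjusted p was 0.0394. The counts behind these values were small, 65 to 381 reads in ALDH- and 22 to 35 in ALDH+.

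CD74, the invariant chain, had 122.5, 75.9 and 212.3 CPM in ALDH- and 32.4, 50.8 and 12.4 CPM in ALDH+ libraries. Here too the groups did not overlap, and the lines differed in size, with ALDH- 3.79-fold, 1.49-fold and 17.2-fold higher in C27, C29 and C30. The log2 difference was -2.10 (SE 0.55, 95% interval -3.38 to -0.82), which did not pass in edgeR without the block (adjusted p = 0.0718) or with it (adjusted p = 0.0683). With the block it passed when the C29 libraries (edgeR adjusted p = 0.000278) or the C30 libraries (edgeR adjusted p = 0.0332) were left out. Those fits called 1307 of 13019 and 815 of 12932 genes lower. DESeq2 gave adjusted p = 0.00374 for CD74 and 0.00211 for BLB1.

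DMA, the alpha chain of the peptide-exchange protein DM, had no common direction in the lines. Its values were 4.35, 3.12 and 3.39 CPM in ALDH- and 5.27, 7.36 and 1.98 CPM in ALDH+ libraries. The groups overlapped, since ALDH+ was above ALDH- in C27 and C29 and below it in C30. The log2 difference was 0.43 (SE 0.50, 95% interval -0.74 to 1.59, edgeR adjusted p = 0.669), an interval that spans both directions. On TPM the log2 differences within C27, C29 and C30 were 0.56, 1.46 and 0.01, so the lower value in C30 was seen on CPM and not on TPM. The median of all genes was shifted on TPM, to 0.36 on log2(TPM + 1) against 0.00 in edgeR on counts. DMA rested on 49 to 163 reads a library.

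In all, 1 of the 8 genes was lower in ALDH+ by edgeR (BLB2), where 5.3 percent of all genes tested were called lower. With the line as a block, 2 of 8 were lower (BLB1 and BLB2; 7.6 percent of all genes). With DESeq2, 3 of 8 were lower (BLB1, BLB2 and CD74; 7.69 percent). None of the 8 was called higher by edgeR, where 0.835 percent of all genes were (5.92 percent with the block).

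**Figure D1:**
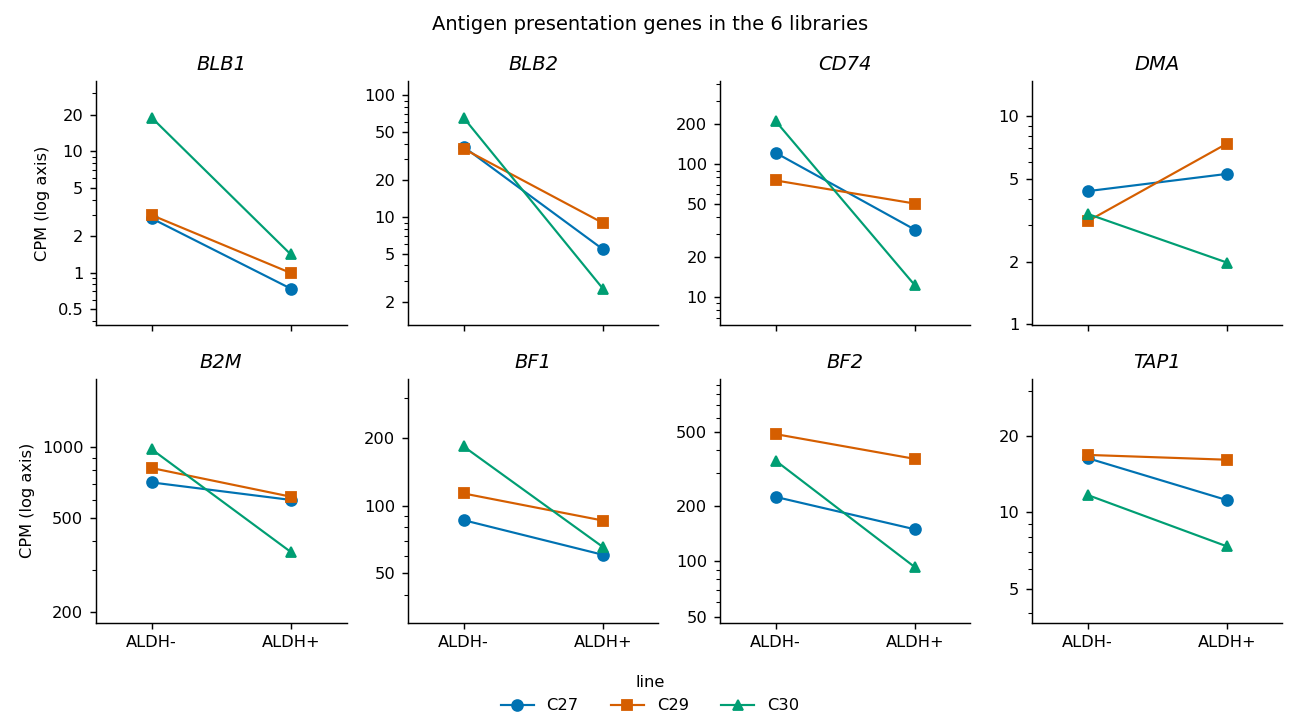
CPM on a log axis of the 8 genes in each library, with a line joining the ALDH- and ALDH+ library of C27, C29 or C30. BLB2 lies at 36.3 to 65.5 CPM in ALDH- and at 2.58 to 8.94 CPM in ALDH+, while the DMA values of the fractions overlap.

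None of the 4 class I genes passed the test between the fractions. B2M, the shared light chain, had 709.5, 817.1 and 982.3 CPM in ALDH- and 597.5, 616.9 and 358.8 CPM in ALDH+ libraries. The groups did not overlap on this scale, but on TPM they did (608.5, 576.3 and 550.4 against 626.4, 510.6 and 348.0). The median of all genes stood at 0.36 on log2(TPM + 1). Less the median of all genes, B2M was at -0.63 on that scale and at -0.68 in edgeR on counts. The log2 difference was -0.67 (SE 0.29, 95% interval -1.35 to 0.01, edgeR adjusted p = 0.247).

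BF2, the class I heavy chain that dominates in many chicken haplotypes, had 223.0, 488.0 and 350.5 CPM in ALDH- and 148.9, 358.3 and 92.9 CPM in ALDH+ libraries. C29 was highest in both fractions, and the groups overlapped. Within each line ALDH+ was lower (log2 -0.58, -0.45 and -1.92). The log2 difference was -0.82 (SE 0.51, edgeR adjusted p = 0.406). With the line as a block it was -0.97 (SE 0.33, 95% interval -1.75 to -0.19, edgeR adjusted p = 0.0978). The difference without the block moved to -1.55 without C29 ALDH+, to -0.52 without C29 ALDH- and to -0.46 without C30 ALDH+.

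BF1, the other heavy chain, had 86.2, 113.2 and 182.9 CPM in ALDH- and 60.5, 85.8 and 65.6 CPM in ALDH+ libraries, without overlap on CPM but with overlap on TPM. Its log2 difference was -0.85 (SE 0.31, 95% interval -1.57 to -0.13, edgeR adjusted p = 0.175), and -0.44 without C30 ALDH- (edgeR adjusted p = 0.572). Less the median of all genes, BF1 was at -0.71 on log2(TPM + 1) and at -0.85 in edgeR on counts. TAP1, a subunit of the peptide transporter, had 16.4, 16.8 and 11.7 CPM in ALDH- and 11.2, 16.1 and 7.35 CPM in ALDH+ libraries, which overlap. Its log2 difference was -0.38 (SE 0.35, edgeR adjusted p = 0.582), and 0.01 on log2(TPM + 1), where the median of all genes stood at 0.36.

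With all 6 libraries none of these 4 passed in edgeR, with or without the block, in DESeq2 or in limma-voom. Without the block 1 (BF1) had an unadjusted edgeR p under 0.05, where 2637 of 12811 genes had. BF1 and BF2 were both under this value with the block, for which no share of all genes is given here. With the block and both C29 libraries left out, BF1 (log2 -1.00, edgeR adjusted p = 0.0313) and BF2 (log2 -1.25, edgeR adjusted p = 0.0199) passed. That fit called 1307 of 13019 genes lower, against 679 of 12811 with all 6 libraries and no block. Over all 8 genes, 5 (BLB1, BLB2, CD74, B2M and BF1) had every ALDH+ library below every ALDH- library on CPM, where 14.6 percent of all genes did. On TPM 3 did (BLB1, BLB2 and CD74), where 7.7 percent of all genes did.

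**Figure D2:**
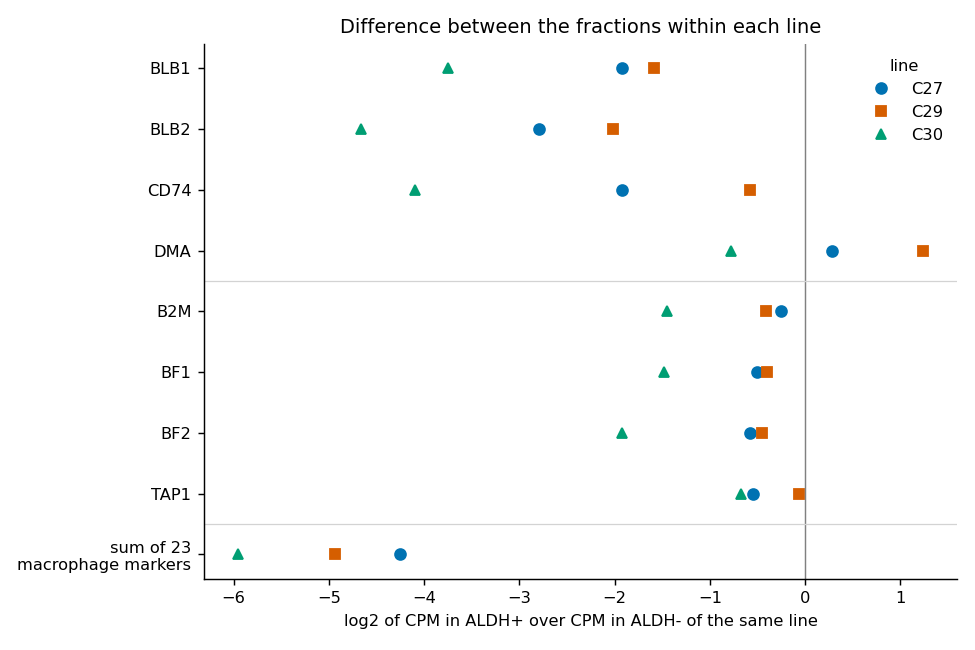
Log2 of CPM in ALDH+ over CPM in ALDH- for each gene and line, with the summed macrophage markers in the bottom row. On this scale C30 has the lowest value of the 3 lines in every row, and the marker sum lies at -4.25, -4.94 and -5.95, below BLB2 at -2.79, -2.02 and -4.66.

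The lines differed in the size of the difference. On CPM the log2 value was lowest in C30 for all 8 genes, and that of the macrophage marker sum was lowest in C30 too. All rest on the same C30 libraries, with TMM factors of 0.832 (ALDH-) and 1.077 (ALDH+). The share of all genes with C30 lowest is not given here, so this is not read as a trait of the 8. On TPM this held for 7 of the 8, the exception being TAP1 (-0.26, 0.17 and 0.12 in C27, C29 and C30). The part of these markers in the results was not tested. In bulk RNA, fewer cells of a type and less RNA per cell cannot be told apart.

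Levels between genes were compared on TPM. B2M was the highest of the 8 in all 6 libraries and BF2 next. BF1 or CD74 came after them, and BLB1 was lowest in 5 of 6 libraries, with DMA lowest in the sixth (C30 ALDH-). The summed level of the 4 class I genes was 941.7, 1060 and 913.5 TPM in ALDH- and 902.8, 933.5 and 542.0 TPM in ALDH+. That of the 4 class II genes was 194.1, 118.1 and 225.7 TPM in ALDH- and 62.5, 75.9 and 24.6 TPM in ALDH+. The class II sums did not overlap and the class I sums did.

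Within the paralogous pairs the same gene led in each library. BF2 over BF1 was 1.96, 4.17 and 1.55 in ALDH- and 1.87, 4.01 and 1.14 in ALDH+, so the ratio was set apart by line, with C29 highest in both fractions. BLB2 over BLB1 was 15.7, 14.1 and 4.01 in ALDH- and 8.63, 10.7 and 2.17 in ALDH+, and C30 was lowest in both fractions. DMB2 over DMB1, the beta chains of DM, was 35.6 to 100.9 in ALDH- and 17.9 to 139.0 in ALDH+, but DMB1 rested on 1 to 8 reads. In chicken, BLB2 and DMB2 have been described as the more widely expressed of each pair. Reads of near-identical copies can be assigned to either, so the split within BF1 and BF2 and within BLB1 and BLB2 is uncertain.

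**Figure D3:**
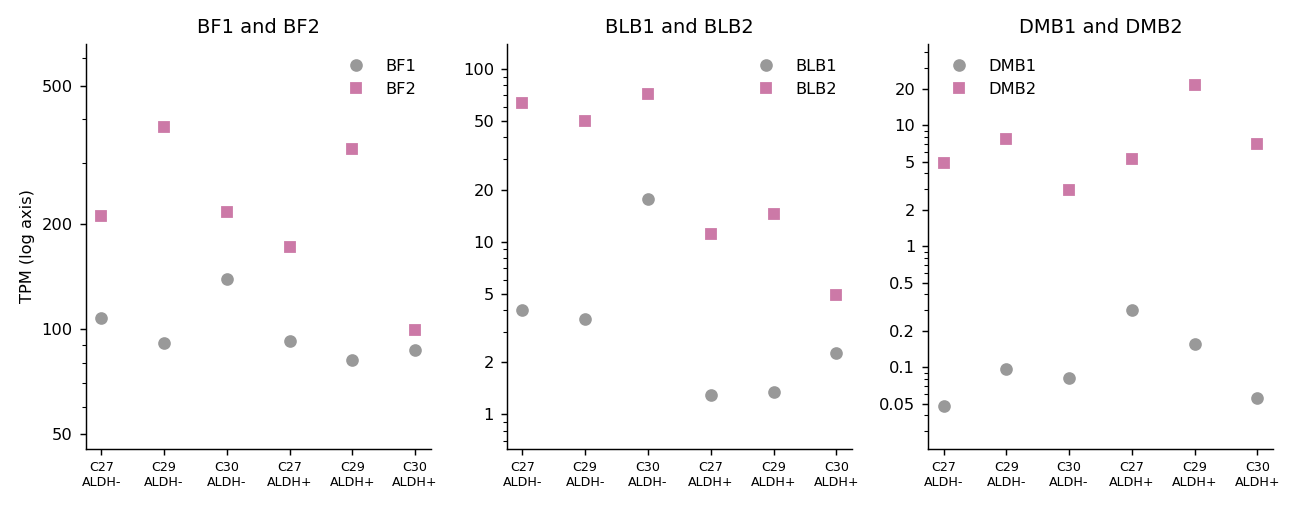
TPM on a log axis of the pairs BF1 and BF2, BLB1 and BLB2, and DMB1 and DMB2 in the 6 libraries. BF2, BLB2 and DMB2 lie above their paralogs in every library, and the BF pair is closest in C30 ALDH+ at a ratio of 1.14.

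Ratios between the genes were also formed from TPM. DMA over the summed beta chains was 0.117, 0.0872 and 0.045 in ALDH- and 0.941, 0.815 and 0.560 in ALDH+, with no overlap. CD74 over the summed beta chains was 1.75, 1.12 and 1.5 against 3.09, 2.99 and 1.88, again with no overlap. The summed class I heavy chains over the summed class II beta chains were 4.73, 8.82 and 4.02 against 21.3, 25.9 and 26.1. BLB2 made up most of the beta chain sum and was lower in ALDH+, so any gene that fell less rises over it. The ratios to this sum are therefore not results separate from that of BLB2. For 3 libraries against 3 the smallest two-sided p of an exact permutation test is 0.1, so no call was made on these ratios. B2M over the class I heavy chains overlapped, at 1.90, 1.22 and 1.54 against 2.36, 1.25 and 1.86.

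The class II genes were then set against the macrophage marker sum. Per 100 TPM of the 23 markers, BLB2 had 1.43, 1.41 and 1.33 TPM in ALDH- and 4.06, 11.1 and 3.43 TPM in ALDH+. CD74 had 2.68, 1.69 and 2.49 TPM against 14.0, 36.4 and 9.41 TPM. SPI1, itself 1 of the 23, had 3.36, 2.91 and 2.98 TPM against 3.05, 3.84 and 3.39 TPM, with overlap. In every line the ratio of BLB2 and of CD74 to the marker sum was higher in ALDH+ than in ALDH-. The marker sum itself differed by log2 -4.02, -4.78 and -5.23 on TPM, so any gene that fell less rises in this ratio. The class I gene B2M rose too, from 13.7, 16.2 and 10.3 TPM to 228.6, 393.7 and 243.6 TPM. The ratio therefore cannot show which cells carry the RNA, and this was not tested. DMA had 0.179, 0.131 and 0.0747 TPM against 4.26, 9.93 and 2.81 TPM.

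**Figure D4:**
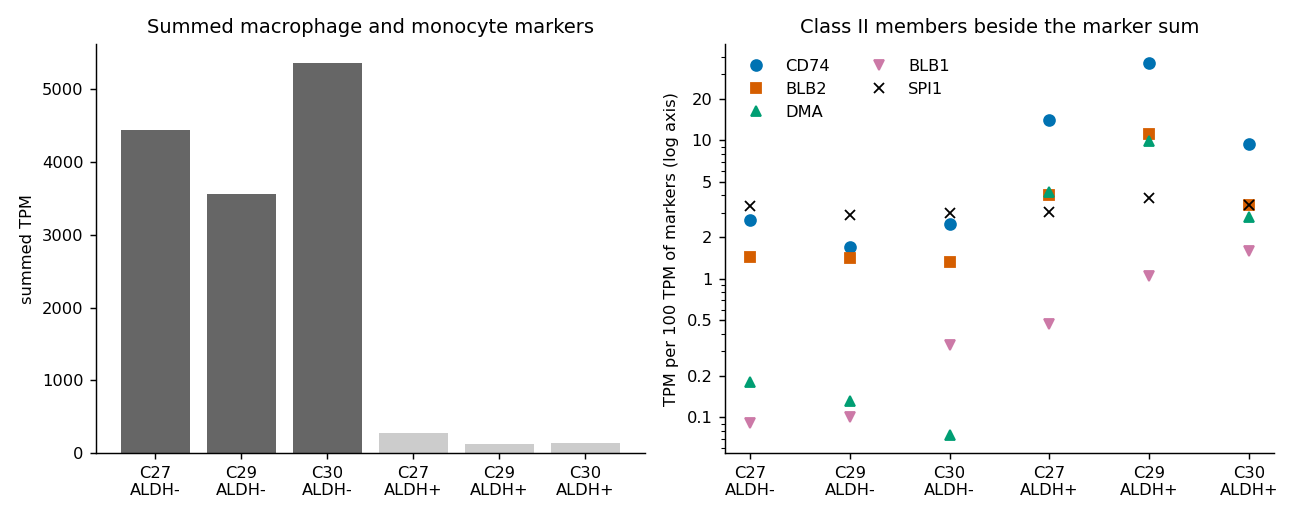
Left, summed TPM of the 23 macrophage and monocyte markers per library, as bars from 0. Right, TPM of the class II genes and SPI1 per 100 TPM of that sum on a log axis, where CD74 moves from 1.69 to 2.68 in ALDH- to 9.41 to 36.4 in ALDH+ and SPI1 stays between 2.91 and 3.84.

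Markers of other class II bearing cells were also read. Of 7 dendritic cell markers tested, none was called by edgeR (2 at an unadjusted p under 0.05, none by DESeq2), and with the block 1 was lower (BATF3, a transcription factor, log2 -1.33, edgeR adjusted p = 0.0432). Of these 7, 5 had a log2 difference below 0, and the median was -0.50. XCR1, a dendritic cell receptor, was at 0 to 0.0498 CPM. ZBTB46 was at 10.6 to 22.1 CPM (log2 0.23, edgeR adjusted p = 0.734) and LY75 at 39.8 to 109.4 CPM (log2 -0.72, edgeR adjusted p = 0.196). The summed dendritic cell list overlapped, at 65.3 to 83.7 TPM in ALDH- and 63.4 to 116.2 TPM in ALDH+. The B cell factor PAX5 was at 0 in all 6 libraries, and CD79B, part of the B cell receptor, was at 0.121 to 0.349 CPM. The summed B cell list was 25.3 to 89.2 TPM in ALDH- and 12.6 to 33.4 TPM in ALDH+. Of its 4 tested genes, 2 were lower (BLK, a SRC family kinase, log2 -5.42, and CD72, log2 -5.23). The others lay above 0 without a call, EBF1 at log2 0.49 (edgeR adjusted p = 0.392) and JCHAIN at 2.16 (edgeR adjusted p = 0.345). JCHAIN was high in C27 ALDH+ alone, at 14.5 CPM. All 3 pan-leukocyte genes tested were lower, with PTPRC (CD45) at log2 -3.32 (edgeR adjusted p = 0.00604). A single gene was lower in each of the T and NK cell (CD5, of 7 tested), epithelial and mesothelial (CDH1, of 6), endothelial (PECAM1, of 2) and erythroid and thrombocyte lists (TAL1, of 1). CD5 had 0 to 2 reads in ALDH+. The T and NK cell list had a median log2 difference of 0.15, with 3 of the 7 below 0. Its CD3E was at log2 1.29 (edgeR adjusted p = 0.197). Over all genes tested, 5.3 percent were called lower without the block, and 7.6 percent lower and 5.92 percent higher with it. With the block KRT18 (log2 1.25, edgeR adjusted p = 0.0224) and WT1 (edgeR adjusted p = 0.0331) of the epithelial and mesothelial list and ERG (log2 1.23, edgeR adjusted p = 0.0251) of the endothelial list were higher. The fibroblast list of 10 genes had no call without the block (3 at an unadjusted p under 0.05, 1 higher by DESeq2) and 3 higher with it, LUM, PDGFRA and PDGFRB (edgeR adjusted p = 0.00229, 0.0248 and 0.0418). Its sum ran from 3000 to 11648 TPM in ALDH- and 7953 to 17986 TPM in ALDH+.

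The files also allow the genes to be read by transcript. BF1 had 3 transcripts, of 1227, 2033 and 2229 bases. The longest held 1.8, 30.2 and 7.6 percent of BF1 TPM in ALDH- and 1.7, 29.1 and 6.9 percent in ALDH+ of C27, C29 and C30. Each line kept its own share in both fractions, and C29 had the largest. The CD74 transcript of 1697 bases held 17.6, 22.7 and 23.9 percent of CD74 TPM in ALDH- and 14.4, 20.7 and 21.3 percent in ALDH+, the remainder being the 1524-base transcript. Of 12 transcripts 11 were tested, and 1, that of BLB2, was lower (log2 -2.99, SE 0.51, edgeR adjusted p = 0.0285), where 2.98 percent of all 18368 transcripts tested were. None was higher, where 0.392 percent of all were. With the line as a block its edgeR adjusted p was 0.0784, and with 1 library left out it passed in 1 of 6 fits, that without C27 ALDH-.

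The authors' deposited table lists the BLB2 transcript at a log2 fold change of -3.0 with an adjusted p of 0.000339, the only one of the 12 with an adjusted p under 0.05 (2.4 percent of the transcripts listed there). That adjusted p is listed apart from a false discovery rate, and its method is not stated. It is therefore not the same measure as the edgeR adjusted p used here. By the false discovery rate given in the authors' deposited table, 4 of 11 passed 0.05 (BLB2, the main BLB1 transcript and both CD74 transcripts), where 9.12 percent of its transcripts did.

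**Figure D5:**
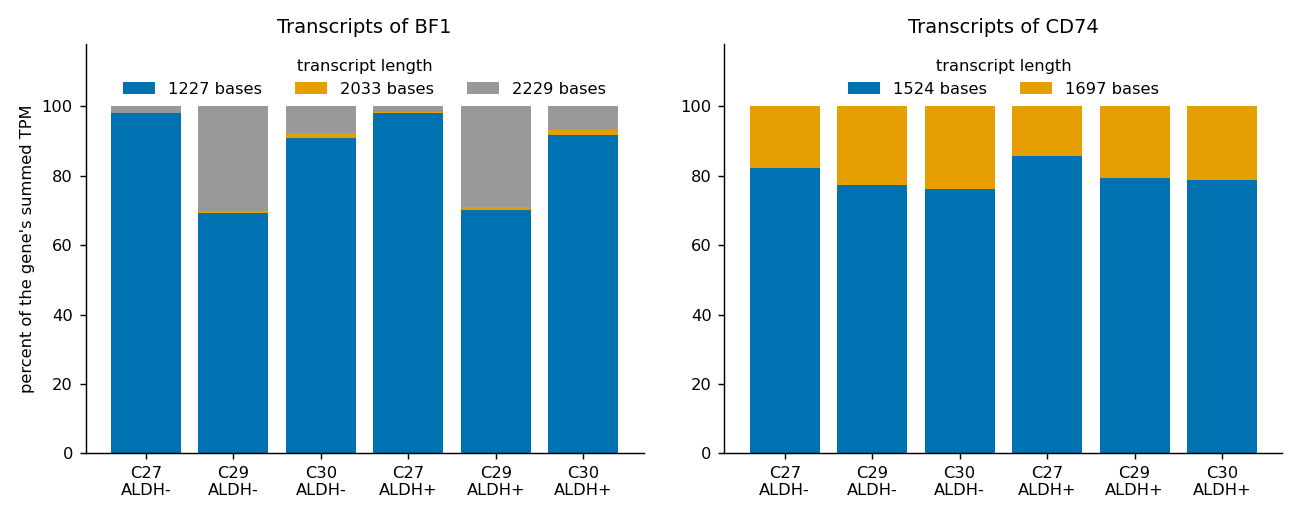
Stacked bars give the percent of gene TPM held by each transcript of BF1 (1227, 2033 and 2229 bases) and CD74 (1524 and 1697 bases) in the 6 libraries. The 2229-base BF1 transcript holds 30.2 and 29.1 percent in the C29 libraries and 1.7 to 7.6 percent in the others.

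Genes that work with class II molecules were read as a list. Of 18 tested (the 4 above left out), 8 were lower in ALDH+ (44.4 percent, against 5.3 percent of all genes), 9 with the block (CTSV added, edgeR adjusted p = 0.0477), and none was higher. The median log2 difference was -0.86, where the median of all genes was 0.00. Those called are enzymes of the lysosome and membrane ligases. IFI30, the thiol reductase GILT, had 1074, 1022 and 2635 CPM in ALDH- and 67.3, 61.4 and 29.997 CPM in ALDH+ (log2 -4.90, SE 0.55, edgeR adjusted p = 0.00206). CTSS, the protease that trims CD74 in mammals, had 1025, 1016 and 1819 CPM against 101.1, 161.4 and 48.2 CPM (log2 -3.64, SE 0.51, edgeR adjusted p = 0.00454). In both genes every ALDH- library lay far above every ALDH+ library. MARCH1, a ubiquitin ligase that removes class II from the surface in mouse and human, had 47.5, 21.2 and 25.6 CPM against 2.72, 1.58 and 1.09 CPM (log2 -4.12, edgeR adjusted p = 0.00238). Its relative MARCH8 was at log2 -1.90 (edgeR adjusted p = 0.00615), and the aspartic protease CTSD at -4.05 (edgeR adjusted p = 0.00658).

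CTSB (log2 -2.12), CTSH (-2.19) and LGMN (-1.18), also proteases, were called but not stably. With 1 library left out at a time, CTSB passed in 2 of 6 fits (those without C27 ALDH- or C30 ALDH+). CTSH passed in 3 of 6, being lost without C29 ALDH-, C30 ALDH- or C27 ALDH+. LGMN passed in 1 of 6, the fit without C27 ALDH-. The 7 factors that bind class II promoters in mammals (RFX5, RFXAP, RFXANK, NFYA, NFYB, NFYC and CREB1) had log2 differences of -0.54 to 0.28, none called by edgeR (1 at an unadjusted p under 0.05) or DESeq2. DMB2, a DM beta chain, had 0.81 (SE 0.66, edgeR adjusted p = 0.529), and DMB1 was too low to be tested. These lysosomal and ligase genes are also active in macrophages, whose markers moved with them as above. Their part in the result was not tested.

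The class I pathway list gave no call. Of 19 genes tested, including chaperones, proteasome subunits and the SEC61 channel, none passed in edgeR (none at an unadjusted p under 0.05), DESeq2 or limma-voom, and the median log2 difference was -0.01. TAPBP (tapasin), which holds the class I molecule to the TAP transporter, had 127.5, 94.4 and 113.2 CPM in ALDH- and 77.0, 97.3 and 40.3 CPM in ALDH+ (log2 -0.64, SE 0.33, edgeR adjusted p = 0.321). ERAP1, which trims peptides in the endoplasmic reticulum in mammals, was at -0.49 (edgeR adjusted p = 0.397), and the class I transactivator NLRC5 at 0.29 (edgeR adjusted p = 0.645).

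Other genes of the MHC region were read as neighbours. Of 13 tested, 1 was lower (7.7 percent, against 5.3 percent of all genes). It was IL4I1, an L-amino-acid oxidase of myeloid cells, at 327.1, 322.7 and 831.9 CPM in ALDH- and 13.2, 11.8 and 7.15 CPM in ALDH+ (log2 -5.52, edgeR adjusted p = 0.00128). BRD2, a chromatin reader that lies between BLB2 and DMA, was at -0.11. The complement gene C4 was at -0.76 (edgeR adjusted p = 0.227) and CYP21A1 at -1.03 (edgeR adjusted p = 0.237). BLEC2 lay the other way, at 1.95 (edgeR adjusted p = 0.2), on 5 to 54 reads a library. In all, 9 of the 13 had a log2 difference below 0.

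Interferon signalling, which raises both classes in many cells, had 3 of 17 tested genes lower (17.6 percent, against 5.3 percent of all genes). IFNAR1, a type I interferon receptor chain, was at log2 -1.83 (edgeR adjusted p = 0.00644), and IRF7 and IRF8, interferon regulatory factors, were at -1.72 (edgeR adjusted p = 0.0119) and -1.43 (edgeR adjusted p = 0.0439). With 1 library left out, IRF8 passed in 1 of 6 fits (that without C29 ALDH+) and IRF7 in 3 of 6, being lost without C30 ALDH-, C27 ALDH+ or C29 ALDH+. The interferon gamma receptor chain IFNGR1 was at -0.70 (edgeR adjusted p = 0.28). Of 16 interferon targets, 2 were lower (12.5 percent), IFIT5 (log2 -2.80, edgeR adjusted p = 0.0017) and GBP (log2 -5.00, edgeR adjusted p = 0.00376). With the block 3 were lower, where 7.6 percent of all genes were. The gene added was OASL (log2 -1.52, edgeR adjusted p = 0.0423), and TRIM25 was at 1.05 with the block (edgeR adjusted p = 0.0515).

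Co-stimulatory and lipid-presenting molecules act beside peptide presentation. CD80, a co-stimulatory ligand, had 90.1, 52.8 and 127.6 CPM in ALDH- and 4.40, 2.35 and 3.03 CPM in ALDH+ (log2 -4.78, edgeR adjusted p = 0.0011). CD83 was at log2 -3.88 (edgeR adjusted p = 0.00215), while CD40 and ICOSLG did not pass (-0.53 and -0.48). Of 5 tested, 2 were lower (40.0 percent, against 5.3 percent of all genes). Both lipid-presenting CD1 genes were lower, CD1B at -4.36 (edgeR adjusted p = 0.00636) and CD1C at -4.64 (edgeR adjusted p = 0.00362).

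Lines were compared with the fraction in the model. Each line has 1 library per fraction, so the error here is how the fraction difference varies between lines, not a spread of replicates within a line. None of the 8 genes passed in edgeR, where 0.367 percent of all genes did. An unadjusted edgeR p under 0.05 was found for 2 (BLB1 and BF2), for which no share of all genes is given here. DESeq2 called 1, BLB1 (adjusted p = 0.029), where it called 9.45 percent of all genes. The geometric mean of BLB1 was 1.44, 1.72 and 5.18 CPM in C27, C29 and C30. In ALDH- it was 2.80, 2.98 and 19.0 CPM and in ALDH+ 0.738, 0.994 and 1.41 CPM, so the C30 value rests largely on 1 library. The geometric mean of BF2 was 182.2, 418.1 and 180.4 CPM (edgeR adjusted p = 0.199).

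A mean pattern was formed for each class. The class II mean took in BLB1, BLB2, CD74 and also DMA, whose log2 differences were -2.97, -3.04, -2.10 and 0.43. The genes whose pattern over the 6 libraries lay closest to the class II mean, by root mean square difference of centred log2 CPM, were SLC27A1 (0.175), CORO7 (0.201), IL10RB (0.217), CYBA (0.221) and GRN (0.224). Those closest to the class I mean were CDK5RAP3 (0.084), MRPL16 (0.090), NDUFS8 (0.096), DECR1 (0.101) and SNX21 (0.110).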

How the data were processed

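Total RNA was sequenced in 6 libraries (paired-end, 125 bp, per the labels). The submitters' processing notes list FastQC, Trimmomatic, HISAT2, kallisto and DESeq2, with GRCg6a as the build and no versions. The authors deposited TPM and, as estimated counts, an expected number of reads for each transcript. Of the positive estimated counts 42.2% are whole within 0.001. Their comparison table, as deposited, holds a signal per library (normalised count), a ratio, log2 fold changes, a Wald score and p-values. Lengths of transcripts, values of other kind, come per the file headers.

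Counts of 28756 transcripts were summed by gene ID and rounded. The 319 transcripts without a gene ID (0.28 to 0.33% of counts) were left out. edgeR 4.0.16 in R 4.3.3 (quasi-likelihood, TMM, filterByExpr with minimum count 10 and total 15) was used with Benjamini-Hochberg adjustment over all genes tested. SEs derive from the F statistic, tests are two-sided, and ± is the SD. Alternatives used DESeq2 1.42.0 and limma 3.58.1 (voom, and log2 TPM with pseudocounts of 1 and 0.1). The code was tested on simulated data.

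Both fractions of a line share a replicate number and a cell line, so the design is paired. Unless the block is named, edgeR values between the fractions come from the fit without it, which leaves the pairing out. As a check, the 2 libraries of a line were compared in how they deviate from their group mean over genes (r = 0.66 in C27, 0.17 in C29, 0.49 in C30). The blocked value stands beside a result where it changes the call.

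The members and gene lists were chosen with earlier results of these data known. The naming rule took all members, the 5 nearest genes by pattern and the first 3 measured genes of each marker list. From each pathway list it took up to 4 genes, ranked by unadjusted p under the block. Some genes under this rule were left out of the text, among them CSF1R, MARCO and COL1A2. Any other gene was picked with its values in view. Several were picked because they were called, such as CD72, CD5, LUM, PDGFRA and PDGFRB. Of the deposited gene IDs 0 matched the reference table, and 11851 gene names were found as symbols.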

Additional observations from a re-analysis of the deposited data

Results flagged for a closer look

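DMA moved in opposite directions in 2 lines. Its log2 CPM difference, ALDH+ over ALDH-, was 1.24 in C29 and -0.78 in C30. On TPM the values were 1.46 and 0.01, so the opposite direction depends on the scaling. TPM carries no TMM factor, and the median of all genes stood at 0.36 on log2(TPM + 1) against 0.00 in edgeR on counts. Each line has 1 library per fraction, and the difference between the lines was not tested.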

How the results depend on the processing

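With the replicate block (line), 1732 genes were called (758 higher and 974 lower) against 786 without it (107 and 679), 2 members against 1, and 0 member transcripts against 1. DESeq2 called 1639 genes and 3 members, and 1 member between lines against 0. On log2(TPM + 1) the split was 268 higher and 505 lower, on log2(TPM + 0.1) 238 and 505. The median of all genes moved to 0.18 with library size alone, 0.12 with upper quartile factors, 0.36 on log2(TPM + 1) and 0.41 on log2(TPM + 0.1). On log2(TPM + 1) without a filter 5 class II pathway genes were called against 8. Leaving out 1 library gave 443 to 1123 genes, 1 to 2 members, 5 to 8 class II and 0 class I pathway genes, 0 to 1 member transcripts and 0 to 2 members between lines. With the block and without 1 line the ranges were 1010 to 2354 genes (1242 without C30), 2 to 5 members, 7 to 9 class II and 0 to 1 class I pathway genes. TAP1 reversed to 0.01 on all 3 TPM settings, and DMA to -0.22 with the block and without C29. Less the median of all genes, TAP1 was at -0.38 in edgeR on counts and at -0.36 on log2(TPM + 1). It was at -0.40 on log2(TPM + 0.1) and at -0.23 on log2(TPM + 1) without a filter. The cause of the reversals was not tested. Of 152 single-member values, 138 kept their direction and call, 10 were called only in the alternative and 4 reversed. Small counts limit BLB1, DMA and DMB1.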
